A study of Mus musculus with 100 samples.

Results

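The binding of p300 to chromatin was compared between bone marrow-derived macrophages treated with KLA for 6 h (p300_WT_KLA) and controls (p300_WT_Veh). The controls are labelled vehicle (Veh) in the sample titles and 0 h of KLA in the column headers. Both groups were wild type mouse cells of the C57Bl6 strain with 2 ChIP-seq libraries each, 4 of the 100 samples and 2 of the 50 groups of the series. All 67998 peaks of the p300 table were used, and all of them passed the minimum of 4 tags in at least 1 library. The table merges peaks called separately in Veh and KLA, so a peak could enter it through the group where p300 was high. Bone marrow-derived macrophages (BMDMs) are primary macrophages grown from bone marrow. The labels give neither the mice nor the cultures behind each library, so p-values measure the spread between these libraries, which may be technical.

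p300 (gene Ep300) is a histone acetyltransferase. It has no sequence-specific DNA binding of its own and is brought to promoters and enhancers by transcription factors, where it acetylates histones, including H3K27. KLA (Kdo2 lipid A) is the active lipid part of bacterial lipopolysaccharide and an agonist of the receptor TLR4. TLR4 signalling brings NF-kB into the nucleus and activates AP-1, and both recruit coactivators to the genes of the inflammatory response. PU.1 and C/EBP factors open many of the enhancers that a resting macrophage already uses.

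The sequences below were chosen from the p300 peaks with the lowest p-values in each direction, at promoters and at distal sites, together with the promoter of Ptgs2, which encodes the inducible cyclooxygenase. Each shows the 200 bases around the peak centre on the plus strand of mm10, with in capitals every match to the motif letters given further on.

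Ptgs2 promoter, chr1:150099895-150100094, higher with KLA, with a C/EBP and an E-box match: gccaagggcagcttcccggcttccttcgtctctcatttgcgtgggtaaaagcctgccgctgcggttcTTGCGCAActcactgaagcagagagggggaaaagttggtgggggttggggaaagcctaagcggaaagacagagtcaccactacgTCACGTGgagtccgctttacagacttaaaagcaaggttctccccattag
Saa3 promoter, chr7:46715727-46715926, higher, with a C/EBP and an IRF match: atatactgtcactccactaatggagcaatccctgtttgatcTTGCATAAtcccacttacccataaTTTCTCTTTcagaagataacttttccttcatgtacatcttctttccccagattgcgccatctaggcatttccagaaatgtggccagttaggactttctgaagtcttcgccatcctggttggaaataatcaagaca
Clec4e promoter, chr6:123290675-123290874, higher, no match: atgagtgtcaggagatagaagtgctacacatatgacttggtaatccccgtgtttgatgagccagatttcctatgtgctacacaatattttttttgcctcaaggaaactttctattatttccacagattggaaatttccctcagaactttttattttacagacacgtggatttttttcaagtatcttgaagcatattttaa
Intergenic near Ptgs2os2, chr1:150203203-150203402, higher, with an NF-kB match: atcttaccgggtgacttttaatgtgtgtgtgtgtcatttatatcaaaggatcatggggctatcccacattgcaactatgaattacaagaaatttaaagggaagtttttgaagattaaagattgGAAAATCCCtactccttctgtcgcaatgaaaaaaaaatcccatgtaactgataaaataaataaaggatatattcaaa
Intergenic near Mir3966, chr10:97442553-97442752, higher, no match: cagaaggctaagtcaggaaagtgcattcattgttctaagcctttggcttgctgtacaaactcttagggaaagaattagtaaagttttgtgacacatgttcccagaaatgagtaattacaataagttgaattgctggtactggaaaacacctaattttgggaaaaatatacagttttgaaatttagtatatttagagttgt
Slco2b1 intron, chr7:99674908-99675107, lower with KLA, with a RUNX and a PU.1 match: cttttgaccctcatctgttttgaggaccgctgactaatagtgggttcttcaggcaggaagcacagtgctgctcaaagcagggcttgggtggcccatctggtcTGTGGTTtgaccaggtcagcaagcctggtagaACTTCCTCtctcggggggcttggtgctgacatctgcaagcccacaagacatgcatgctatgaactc
Downstream of Lyz2, chr10:117276729-117276928, lower, no match: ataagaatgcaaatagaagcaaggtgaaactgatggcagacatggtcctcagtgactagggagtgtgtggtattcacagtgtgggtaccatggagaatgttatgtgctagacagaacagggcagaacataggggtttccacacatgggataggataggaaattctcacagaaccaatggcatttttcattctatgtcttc
4930404N11Rik promoter, chr10:81366660-81366859, lower, no match: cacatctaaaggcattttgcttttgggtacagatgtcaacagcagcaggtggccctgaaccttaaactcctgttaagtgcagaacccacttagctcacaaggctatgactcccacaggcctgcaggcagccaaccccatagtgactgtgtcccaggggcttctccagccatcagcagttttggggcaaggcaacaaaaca

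With KLA, p300 rose at 28597 peaks and fell at 8747, while 30654 did not pass the test. Called peaks changed more than 2-fold and had a p under 0.05 after Benjamini-Hochberg adjustment in edgeR's quasi-likelihood F-test, after scaling by the library totals (tags per 10 M). Of all peaks tested, 42.1% were called higher and 12.9% lower, and the median log2 fold change was 0.65. The gains were larger than the losses: 18754 of the higher peaks (65.6%) and 2684 of the lower peaks (30.7%) moved by more than 4-fold. Higher peaks had a median of 6.11 tags per 10 M in Veh and 40.7 in KLA. At 9615 of them both Veh libraries were under 5 tags per 10 M, and at 1263 both Veh libraries were at 0. Lower peaks had medians of 34.8 in Veh and 10.9 in KLA, and at 26 of them both KLA libraries were at 0. With 2 libraries a group the ranges did not overlap at all 28597 higher and at 8740 of the lower peaks, and also at 64.3% of the peaks that were not called. ChIP-seq on a population cannot tell apart more cells with a bound site from more binding per cell.

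The split between gains and losses depended on the scaling. The libraries held 15.954 M and 15.2188 M tags in Veh and 19.5485 M and 18.5032 M in KLA. The share of tags inside peaks was 23.7% and 22% in Veh and 35.5% and 35.3% in KLA, which moved with the gain, and its part in the result was not tested. TMM normalization, which centres the bulk of the peaks, shifted the median log2 fold change by 0.52 to 0.14 and called 22267 higher and 16245 lower. By library totals 76.6% of the called peaks were higher, and by TMM 57.8%. TMM lowered the log2 fold changes of all peaks by a similar amount. All 22267 peaks that TMM called higher and all 8747 that library totals called lower therefore kept their call, and no call turned its direction. This agreement follows from the shift and is no separate support for the calls. Without KLA replicate 1 the lower count was 5487, and without KLA replicate 2 it was 5536. The peaks were called separately in Veh and KLA libraries and then merged. Of the 29952 peaks called in KLA alone, 22869 were higher, and of the 13467 called in Veh alone, 6556 were lower, so the peak set and the comparison share libraries. Of the 24579 peaks called in both, 5671 were higher and 2111 lower.

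Promoters and distal regions differed in direction. At promoter-TSS peaks, 814 of 6377 (12.8%) were higher and 1181 (18.5%) lower, with a median log2 fold change of -0.43 (-0.95 by TMM). Introns held 13632 higher peaks (43.5%) and 3782 lower (12.1%) of 31368, with a median of 0.75. In intergenic regions 13160 of 27238 peaks (48.3%) were higher and 3125 (11.5%) lower, with a median of 0.97. Exons (33.7% higher, 17.8% lower), 3' UTRs (35.1% and 18.6%) and transcription termination sites (33.7% and 25.0%) had shares of higher peaks between those of promoters and introns, and 5' UTRs had 17.5% higher and 23.6% lower. The lower shares of termination sites and 5' UTRs were above that of promoters. Without KLA replicate 2 the lower count at promoter-TSS peaks was 695, and under TMM it was 2961.

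The share of higher peaks grew with the distance to the nearest transcription start. Within 100 bp of a start, 6.26% of 3677 peaks were higher and 20.1% lower, with a median log2 fold change of -0.53. Between 1 and 2 kb, 36.5% were higher. Between 10 and 50 kb it was 45.3%, and beyond 100 kb it was 53.9% with 10.5% lower and a median of 1.32 (0.80 by TMM). Taken by the 2 kb limit used for distal peaks, 26341 of 57200 distal peaks (46.1%) were higher and 6857 (12.0%) lower. Distal peaks were 92.1% of all higher peaks and 78.4% of all lower peaks. Promoter-TSS peaks were 2.85% of the higher and 13.5% of the lower.

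The tags of each library were also summed by class, without any call. Promoter-TSS peaks took 12.6% and 13.5% of the in-peak tags in Veh and 8.23% and 7.85% in KLA, or 13.1% ± 0.598 and 8.04% ± 0.270 (SD, n = 2). Both KLA libraries were below both Veh libraries. As a percent of all tags of the library, promoter-TSS peaks held 3.0 and 2.96 in Veh and 2.92 and 2.77 in KLA, while all peaks together held 23.7 and 22 in Veh and 35.5 and 35.3 in KLA, so the smaller promoter share went with more tags in the other classes. Intergenic peaks took 39.5% and 38.7% in Veh and 43.3% and 43.9% in KLA, again with no overlap. With 2 libraries against 2, the two-sided exact permutation test cannot go below p = 0.33, and it gave that value for both classes.

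**Figure D1:**
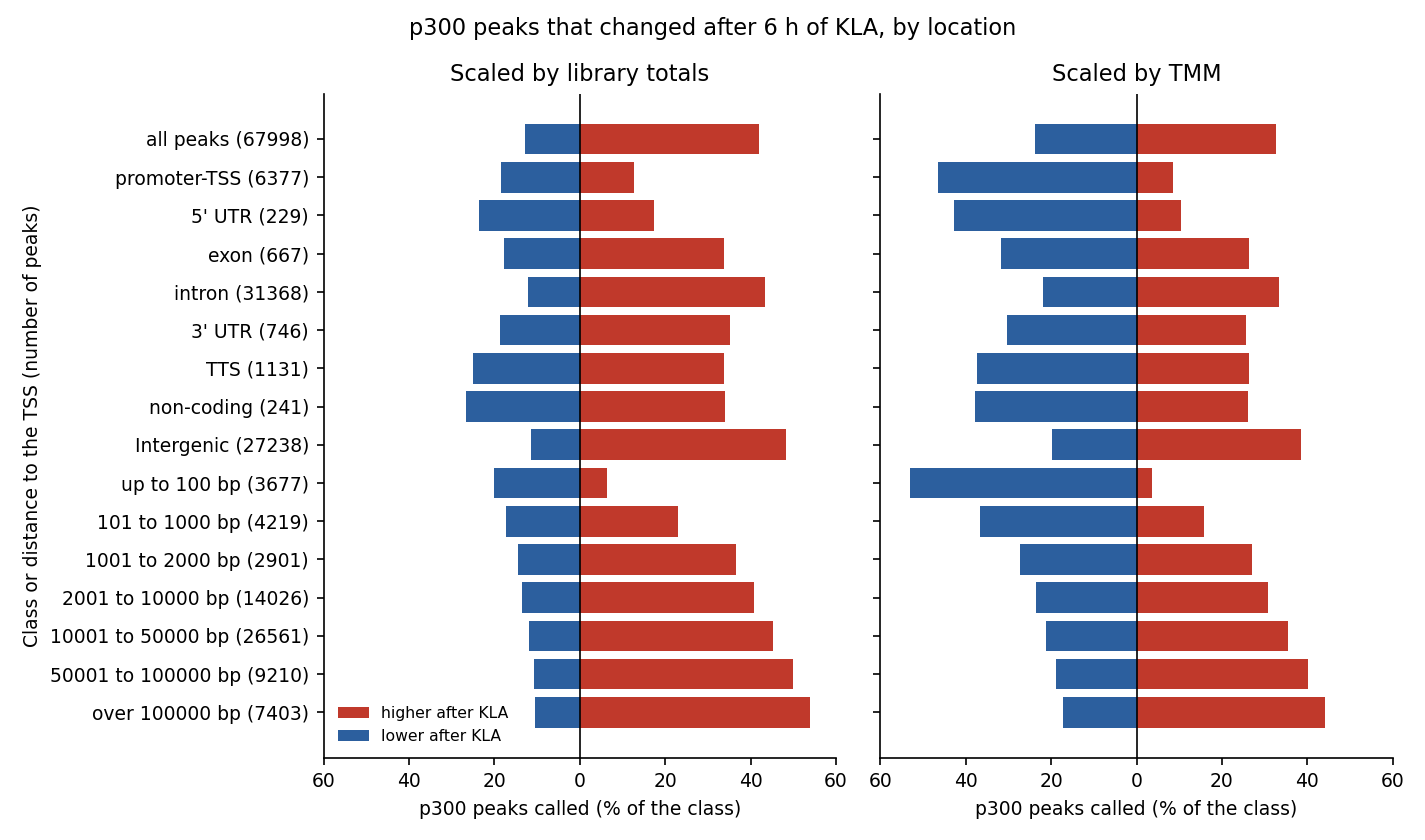
Percent of p300 peaks called higher (right of 0) and lower (left of 0) with KLA in each annotation class and distance range, with the number of peaks in brackets, scaled by library totals (left) and by TMM (right). By library totals the percent higher climbs from 6.26% within 100 bp of a start to 53.9% beyond 100 kb, and promoter-TSS peaks are lower more often (18.5%, and 46.4% by TMM) than higher (12.8%, and 8.61% by TMM).

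Repeats and CpG islands showed the same contrast. Peaks with CpG island as their detailed annotation were higher in 11.9% and lower in 21.2% of 586. That annotation names promoter peaks such as that of Abca1 as promoter-TSS, so islands at promoters are left out there. Among repeat classes, LTR retrotransposons (46.5% of 5964 higher) and SINEs (43.4% of 2350) were close to the 42.1% of all peaks. LINE peaks were higher in 56.7% of 4010. Peaks in DNA transposons were higher in 64.6% and lower in 4.59% of 936, with a median log2 fold change of 1.75. The families with most peaks among these were URR1B, with 100 of 138 higher and 4 lower, and URR1A, with 71 of 108 higher and 4 lower. Single LTR families differed in their counts, with 229 of 424 MTC peaks higher against 102 of 348 ORR1E peaks, and 25 and 68 of them lower. Tags in repeats depend on how reads with several matches were placed, so these counts are less certain than those in unique sequence.

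The gains with the lowest p mostly began from very low p300 in Veh. At the promoter of Clec4e, which encodes the C-type lectin receptor Mincle, the Veh libraries held 3.76 and 2.63 tags per 10 M and the KLA libraries 315 and 336. Its log2 fold change was 6.63 ± 0.26 (SE), with an edgeR adjusted p of 5.47e-11. Saa3, an acute-phase serum amyloid, had promoter values of 7.52 and 4.6 in Veh and 370 and 362 in KLA, a log2 fold change of 5.89 ± 0.24 (edgeR adjusted p = 5.98e-11). The promoter of Mir155hg, the host gene of an inflammatory microRNA, went from 8.78 and 16.4 to 448 and 452, a log2 fold change of 5.16 ± 0.22. All 8 Mir155hg peaks were higher.

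Several distal peaks went from single tags to high levels. The peak 132804 bp upstream of Il6, the gene of a major inflammatory cytokine (chr5:29880190-29880430), held 1 tag in each Veh library and 744 and 781 in KLA. With so few tags in Veh the ratio of 625 has a 95% counting interval from 173 to 5163. An intron of Adora2a, an adenosine receptor gene (intron 2 of 2, chr10:75330226-75330453), held 1 and 1 tags in Veh and 635 and 667 in KLA, a ratio of 533 (147 to 4408). In intron 6 of 7 of Samsn1, an adaptor protein gene, 1 and 1 tags became 660 and 595. The peak near the non-coding gene Ptgs2os2, 38354 bp upstream of its start, rose from 3 and 3 tags to 870 and 831. The first intron of Cd38, an ectoenzyme that consumes NAD, already had p300 in Veh (43.9 and 33.5 tags per 10 M) and rose to 784 and 826, a log2 fold change of 4.37 ± 0.16.

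The losses with the lowest p lay at peaks that had high p300 in Veh, among them the macrophage gene Lyz2. The highest peak of Lyz2, which encodes lysozyme, lay at its 3' end (chr10:117276656-117277001, TTS) and held 570 and 754 tags per 10 M in Veh and 75.7 and 70.3 in KLA. This was a log2 fold change of -3.18 ± 0.16 (edgeR adjusted p = 3.09e-10), and 7 of the 10 Lyz2 peaks were lower and 0 higher. In intron 7 of 13 of Slco2b1, an organic anion transporter gene (chr7:99674886-99675128), 200 and 189 became 6.65 and 7.03, a log2 fold change of -4.82 ± 0.25. Intron 2 of 7 of Atp6v0d2, a subunit of the vacuolar proton pump, fell from 309 and 283 to 33.8 and 42.7. Exon 6 of 8 of Pparg, a lipid-sensing nuclear receptor, fell from 82.7 and 73.6 to 16.9 and 11.9. Among promoters, 4930404N11Rik fell from 169 and 198 to 26.1 and 27, Hist1h1d, a linker histone gene, from 102 and 160 to 8.18 and 5.94, and Bank1, a B cell adaptor gene, from 181 and 158 to 32.2 and 28.1. Veh and KLA ranges did not overlap at any of these peaks, which follows from their choice by lowest p and adds no support.

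**Figure D2:**
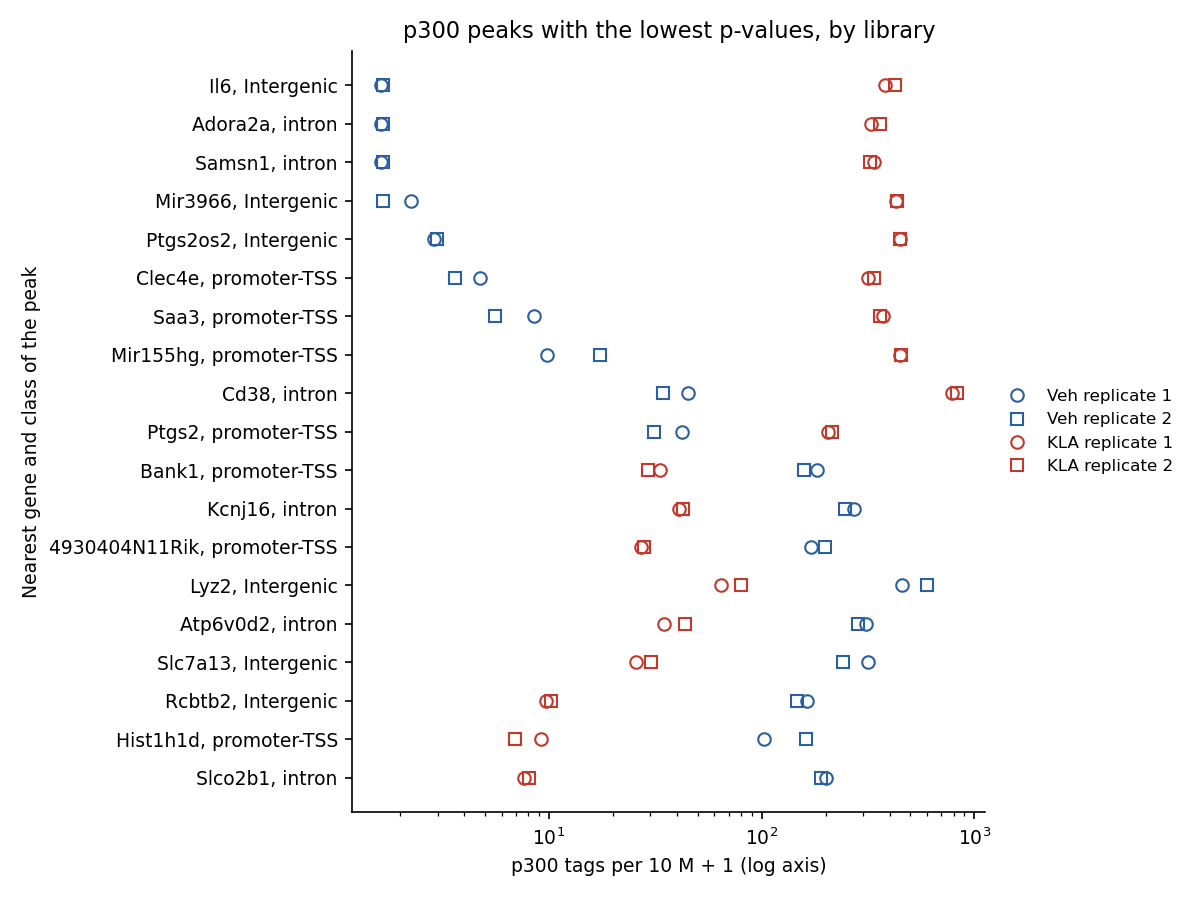
p300 tags per 10 M in each of the 4 libraries (plotted as value + 1 on a log axis, circles for replicate 1 and squares for replicate 2) at the promoter of Ptgs2 and at the promoter, intron and intergenic peaks with the lowest p in each direction. The groups do not overlap, as at Slco2b1 (200 and 189 against 6.65 and 7.03). For the peaks chosen by lowest p this follows from the choice.

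Secreted cytokine genes gained p300 at most of their peaks. Of 236 peaks assigned by nearest start to 19 such genes, 183 were higher and 5 lower, with a median log2 fold change of 2.68 (2.17 by TMM) against 0.65 for all peaks. At the strongest peak of each gene, 14 of 19 were higher and 0 lower, against 4043 and 1678 of all 13439 genes. Il12a, a subunit of interleukin 12, went at that peak from 15.0 and 11.2 to 249 and 286 tags per 10 M, a log2 fold change of 4.34 ± 0.22 (edgeR adjusted p = 3.47e-10). Il27 rose by 4.27 on the log2 scale, the interleukin 1 antagonist Il1rn by 2.50 at its promoter and the anti-inflammatory Il10 by 2.17. The promoter of Tnf rose from 108 and 106 to 296 and 311, a log2 fold change of 1.5. Il6 had 34 of 36 peaks higher and Il1b 16 of 18. By TMM 6 of the 19 strongest peaks were higher and 1 lower, against 2877 and 3757 of the 13439 genes. Il15 (0.17) and Osm (0.89) did not pass the 2-fold threshold.

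Chemokine genes had 100 of 149 peaks higher and 1 lower, a median of 2.08. The promoter of Ccl5, which attracts T cells, went from 4.39 and 10.5 to 346 and 355, a log2 fold change of 5.55 ± 0.25 (edgeR adjusted p = 1.23e-10), and all 14 Ccl5 peaks were higher. Ccl22 rose by 4.02, the monocyte attractant Ccl7 by 3.87 and Ccl17 by 2.51 on the log2 scale. The strongest peaks of Ccl3 (0.41) and Cxcl16 (0.32) were not called.

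Effector enzymes of inflammation moved in both directions. Their 177 peaks comprised 112 higher and 19 lower, with a median of 2.36. Ptges, the prostaglandin E synthase, rose from 16.3 and 17.7 to 478 and 485, a log2 fold change of 4.82 ± 0.18. The promoter of Nos2, the inducible nitric oxide synthase, rose from 11.9 and 18.4 to 192 and 209, and all 16 of its peaks were higher. The promoter of Acod1, which makes itaconate, rose from 21.3 and 32.2 to 293 and 329, and 19 of its 20 peaks were higher. In contrast Ptgs1, the constitutive cyclooxygenase, fell from 92.8 and 47.3 to 26.1 and 13.5 in intron 2 of 10, a log2 fold change of -1.82 ± 0.37. Alox5, which starts leukotriene synthesis, fell from 186 and 178 to 57.3 and 49.7 in its first intron, a log2 fold change of -1.76 ± 0.18.

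NF-kB subunit and inhibitor genes had 178 of 254 peaks higher and 4 lower, a median of 1.88. The first intron of Nfkb1 went from 25.7 and 12.5 to 335 and 352, a log2 fold change of 4.16 ± 0.23. Rel rose by 2.49, Nfkbib by 2.15 and Nfkb2 by 2.09 on the log2 scale at their strongest peaks. Tnfaip3, a brake on NF-kB signalling, had 43 of its 48 peaks higher and 0 lower. Nfkbiz (0.54) and Ikbke (0.93) were not called.

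AP-1 and ATF genes were split. Of 170 peaks 72 were higher and 19 lower, and the median of 0.56 was close to that of all peaks and near 0 by TMM (0.04). Fosl2 rose from 6.89 and 11.2 to 217 and 217, a log2 fold change of 4.58 ± 0.25, and Batf from 84.6 and 85.4 to 547 and 567. Fosb fell from 154 and 159 to 56.8 and 50.3, a log2 fold change of -1.54 ± 0.19. The calls at Fosl1 (1.17) and Jund (-1.12) depended on both KLA libraries. Without KLA replicate 1 the adjusted p was 0.316 at Fosl1 and 0.203 at Jund, and without KLA replicate 2 it was 0.187 and 0.110. Fosl1 was also lost without Veh replicate 1 (adjusted p = 0.134). Atf3 (0.35) and Fos (-0.49) were not called.

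Genes of TLR signalling itself had 134 of 254 peaks higher and 19 lower, a median of 1.15. Irak3, an inhibitor of TLR signalling, went from 13.8 and 10.5 to 376 and 363 in its first intron, a log2 fold change of 4.91 ± 0.21. Tlr1 rose by 2.72, Traf1 by 2.63 and Irak2 by 1.87. Tlr3, the receptor of double-stranded RNA, fell from 30.7 and 34.2 to 3.07 and 4.86, a log2 fold change of -3.01 ± 0.50. The promoter of Tlr4, the receptor of KLA, held 231 and 166 in Veh and a mean of 102 in KLA, a log2 fold change of -0.97 ± 0.18 that did not reach 2-fold by library totals.

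Interferon-stimulated genes had 58 of 103 peaks higher and 5 lower (median 1.38), and feedback inhibitors 140 of 252 higher and 14 lower (median 1.31). Oasl1, an antiviral gene, rose from 20.7 and 39.4 to 231 and 236 at its promoter, and Gbp5, a guanylate-binding protein of cell defence, from 39.5 and 46.0 to 218 and 255. Cd274, the checkpoint ligand PD-L1, rose by 2.39, the phosphatase gene Dusp2 by 2.30 and the cytokine inhibitor Socs3 by 2.18 on the log2 scale. Zfp36 (0.53) and Dusp1 (0.74) were not called.

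**Figure D3:**
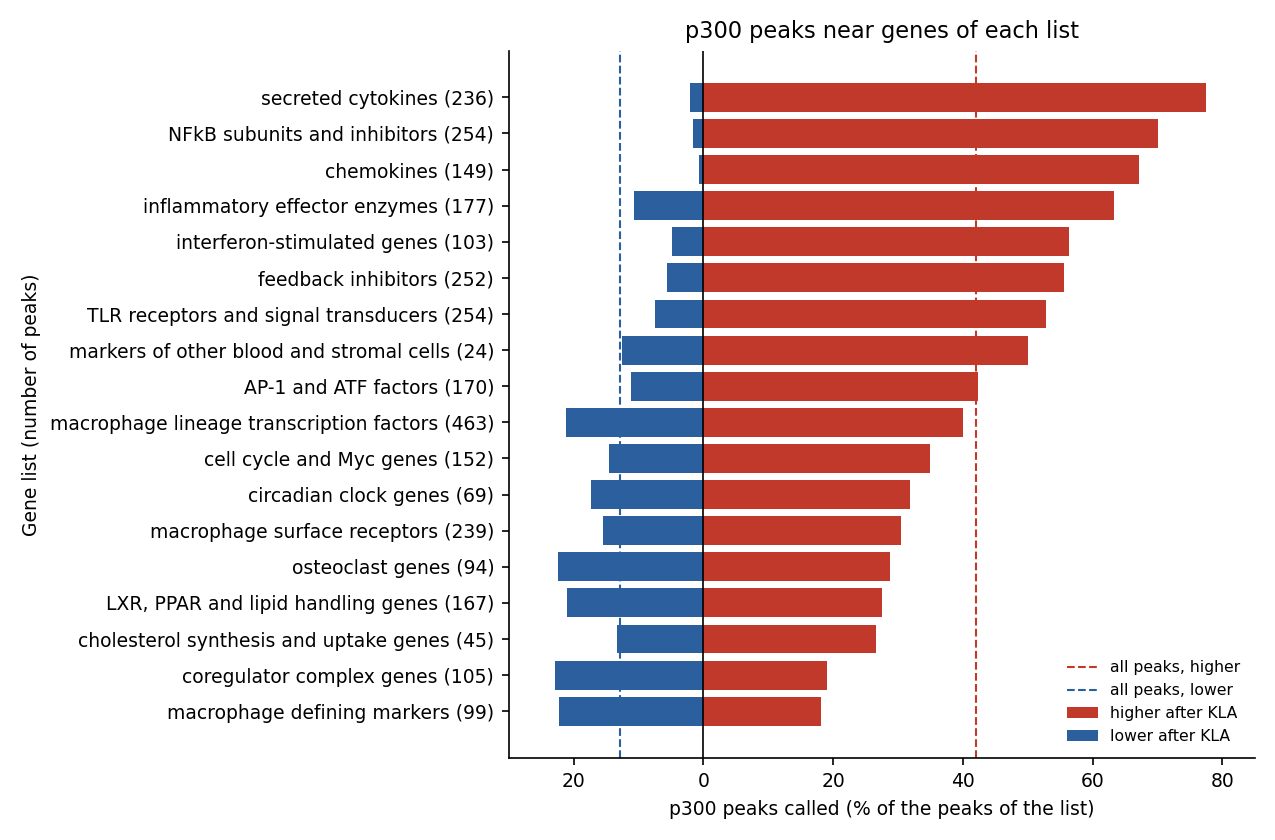
Percent of the p300 peaks of each gene list called higher (right of 0) and lower (left of 0) with KLA by library totals, with the number of peaks in brackets and dashed lines at 42.1% and 12.9% for all peaks. Secreted cytokine genes are at 77.5% higher and 2.12% lower, and at the other end macrophage marker genes are at 18.2% higher and 22.2% lower.

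Transcription factors of the macrophage lineage had gains and losses side by side. Of 463 peaks 185 were higher and 98 lower (21.2%, against 12.9% of all peaks), and the median of 0.39 turned to -0.13 by TMM. Cebpd, a C/EBP factor induced in inflammation, rose from 21.3 and 10.5 to 238 and 256, a log2 fold change of 3.94 ± 0.25, at a peak 97120 bp from its start inside another gene. Mef2c fell from 203 and 189 to 35.8 and 35.1, a log2 fold change of -2.47 ± 0.19, and 10 of its 26 peaks were lower and 8 higher. Spi1, which encodes PU.1, had 155 and 156 against 220 and 221 at its strongest peak (0.50, not called, and -0.02 by TMM). The higher calls at Tfec (1.47), Cebpa (1.38) and Mitf (1.07) were lost under TMM.

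Surface receptors and lipid genes were also mixed. Macrophage surface receptors had 73 of 239 peaks higher and 37 lower, with a median of 0.32 (-0.20 by TMM). The scavenger receptor Marco rose from 23.8 and 14.5 to 172 and 175, whereas Axl, a receptor for apoptotic cells, fell from 152 and 137 to 45.0 and 30.8. LXR, PPAR and lipid handling genes had 46 of 167 higher and 35 lower, a median of 0.15 (-0.37 by TMM). Lpcat3, a phospholipid-remodelling enzyme, rose by 2.51 on the log2 scale, and the fatty acid binding protein Fabp4 by 1.90. Apoe, the main lipid carrier secreted by macrophages, fell from 94.6 and 90.7 to 44.0 and 23.8 at its promoter (-1.44 ± 0.28), and all 4 of its peaks were lower.

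Cholesterol genes had 12 of 45 peaks higher and 6 lower, with a median of 0.09 (-0.43 by TMM). Insig1, a sensor that holds back sterol synthesis, fell from 125 and 106 to 17.4 and 24.3. The lower call at Scap, the escort of the sterol-regulated factors, was lost without KLA replicate 2 (log2 fold change -0.77, adjusted p = 0.169). Srebf2 was not called (0.09).

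Genes of coregulators, osteoclasts, the clock and the cell cycle had smaller shares of higher peaks than the 42.1% of all peaks. Coregulator genes had 20 of 105 peaks higher and 24 lower (median -0.16). Crebbp, the paralog of p300, rose at a weak intron peak from 4.39 and 2.63 to 30.2 and 34.0, and Ep300 itself was not called (-0.66). Osteoclast genes had 27 of 94 higher and 21 lower (0.10, and -0.42 by TMM), with Car2 up by 1.88 and Atp6v0d2 at -2.08 on the log2 scale at their strongest peaks. Clock genes had 22 of 69 higher and 12 lower (-0.07), and cell cycle genes 53 of 152 higher and 22 lower (0.44, and -0.08 by TMM). Arntl, the core clock activator, fell from 68.9 and 56.5 to 12.8 and 17.3, and the cell cycle kinase gene Cdk2 from 80.9 and 75.6 to 28.6 and 28.1 at its promoter. E2f1 rose from 15.0 and 13.1 to 155 and 104. The calls at Rora (-3.52) and Per2 (2.45) needed both KLA libraries. Without KLA replicate 1 and then 2 their adjusted p was 0.0548 and 0.0515 for Rora and 0.268 and 0.142 for Per2. Without KLA replicate 2 the lower call at Cdk1 (-1.42) had an adjusted p of 0.0587.

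The cell type was checked with defining markers. All 8 macrophage marker genes had p300 peaks, with summed levels of 7514 and 7863 tags per 10 M in Veh and 7084 and 7126 in KLA over 99 peaks. Single markers went in both directions. The sum fell at Lyz2 (1889 and 2466 to 546 and 505), Csf1r, Mertk and Cd68. It rose at Adgre1 (1224 and 1186 to 1775 and 1780), Spi1, Itgam and Fcgr1. For 18 markers of other blood and stromal cells, 10 had a peak and the summed levels were 575 and 511 in Veh and 812 and 863 in KLA over 24 peaks. Cd79a, Pax5, Col1a1, Pdgfra, Elane, Gata1, Cpa3 and Mcpt4 had none. Of these 24 peaks 12 were higher and 3 lower. The 2 with the largest change were distal, 201966 bp from Col1a2 (a collagen gene, 1.25 and 1.97 to 58.3 and 58.4) and 27306 bp from Ncr1 (a natural killer receptor gene, 1.88 and 0 to 116 and 113). The part of other cells in these values was not tested. The calls at Cd3e and Cd8a, T cell genes, had adjusted p of 0.266 and 0.0582 without KLA replicate 2, and Cd3e 0.135 without KLA replicate 1.

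Of 13439 genes nearest to a peak, 5541 had higher peaks with no lower one, 2176 lower peaks with no higher one, 2412 both and 3310 none called. The median gene had 3 peaks. Trps1, a GATA-type repressor, had 68 of 90 peaks higher and 0 lower, Lpp, a focal adhesion protein, 63 of 82, and Creb5, a cAMP response factor, 47 of 58. The predicted genes 1700019E08Rik (61 of 78), 1700016G22Rik (55 of 78) and Gm1653 (47 of 71) were next to similar runs of peaks. Edn1, the gene of the peptide endothelin, had 46 of 47 higher and Nr3c1, the glucocorticoid receptor, 46 of 59. The genes with most lower peaks were Neat1, a nuclear long non-coding RNA, with 23 of 33, Ly86, a partner of the receptor RP105, with 21 of 42 and 12 higher, and the RNA-editing enzyme Apobec1 with 19 of 21 and 0 higher. 4933433H22Rik (18 of 29), 9430078K24Rik (18 of 32) and Tbl1xr1, a subunit of the NCoR complex, (18 of 56) followed. Large gene deserts assign many peaks to 1 gene, so these counts depend on the distance between genes.

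The calls of distal peaks were counted by the call of the promoter peak of the same gene. Here this is the gene's strongest peak within 2 kb of a start, whatever its annotation class. At 1017 genes with a higher promoter peak, 62.8% of 8110 distal peaks were higher and 4.73% lower. At 768 genes with a lower promoter peak, 26.4% of 4792 distal peaks were higher and 25.6% lower, an even split. At 3214 genes with a promoter peak that was not called the shares were 43.8% and 11.2% of 20032. Even so 54.2% of the genes with a lower promoter had at least 1 higher distal peak. This was 87.0% of those with a higher promoter and 70.3% of those with a promoter not called. Promoter and distal values come from the same libraries.

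The study's example loci responded differently. At Ptgs2 all 6 peaks were higher. Its promoter (chr1:150099863-150100125, printed above) held 41.4 and 30.2 tags per 10 M in Veh and 205 and 213 in KLA, a log2 fold change of 2.54 ± 0.20 (edgeR adjusted p = 2.79e-08). The peaks inside and beyond the gene started lower, as in the exon at chr1:150104387-150104648 with 1 and 0 tags in Veh and 33.3 and 28.1 tags per 10 M in KLA. At Cp, which encodes the copper-carrying ferroxidase ceruloplasmin, all 5 peaks were higher. The one at chr3:19954023-19954283 went from 10.7 and 23 to 287 and 283. At Il12a all 17 peaks were higher, and 13 of them lay 11283 to 57877 bp upstream. The peak at chr3:68632655-68632879 went from 1.25 and 2.63 to 238 and 223 (6.85 ± 0.32), while the promoter itself was weak, from 1.25 and 0 to 13.3 and 14.1. Weak peaks depended on both KLA libraries: the adjusted p at the Il12a promoter was 0.0531 and 0.0543 without KLA replicate 1 and 2, and at the peak starting at 68640995 it was 0.196 and 0.0661. Without KLA replicate 1 it was 0.174 at the Il12a peak starting at 68677133 and 0.0529 at the Cp intron.

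At Abca1, the cholesterol efflux pump, 14 of 30 peaks were higher and 3 lower. Its promoter went from 120 and 115 to 338 and 316 (1.48 ± 0.15), which TMM put at 0.96 and did not call. The peak 27492 bp upstream fell from 196 and 180 to 52.2 and 36.8 (-2.08 ± 0.20). The other lower Abca1 calls, at the peaks starting at 53106906 and 53133545, were lost without KLA replicate 1 (adjusted p = 0.112 at the first, under 2-fold at the second) and without Veh replicate 1 (log2 fold changes -0.87 and -0.98). Scd2, a fatty acid desaturase, had 2 of 5 peaks higher. At the osteoclast genes, Acp5, the acid phosphatase, had 0 of 2 peaks called, and Ocstamp, a cell fusion gene, had 2 higher and 1 lower of 6. The Ocstamp promoter (15.0 and 13.1 to 6.14 and 4.32) had an adjusted p of 0.176 without KLA replicate 1, 0.292 without KLA replicate 2 and 0.0679 without Veh replicate 1. The weaker of the higher Ocstamp peaks (3.76 and 0.657 to 18.4 and 14.1) had 0.129 and 0.0536 without KLA replicate 1 and 2.

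The other factors of the series were measured in separate libraries of wild type BMDMs with Veh and KLA, prepared on later dates than the p300 libraries by the labels, and were compared at the nearest peak centre within 200 bp. For background, 57% of 52629 p65 peaks were higher and 5.43% lower, 11.4% and 4.19% of Fosl2 peaks, 4.53% and 21.7% of PU.1, 16.4% and 6.35% of PGC1b, 10.3% and 2.53% of ERK1, 23.4% and 16.7% of NCoR, and 27.5% and 11.3% of HDAC3. Each factor's table was called by the same test and with its own library totals. The control of p300 is labelled 0 h of KLA and that of p65, Fosl2, PU.1, NCoR and HDAC3 6 h of vehicle, so the controls differ in time.

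p65, the activating NF-kB subunit, had a peak at 66.2% of the higher p300 peaks, and 92.6% of those 18938 were p65-higher, with a median log2 fold change of 2.95. It had a peak at 38.7% of the lower p300 peaks, of which 2.95% were higher and 25.3% lower. At p300 peaks not called, 63.8% had p65 and 39.8% of these were higher. Under TMM of the p65 table, 11526 instead of 17531 matched peaks were higher at the gains, and 2566 instead of 856 lower at the losses. At the p300 peaks not called that scaling turned the balance of p65 calls, to 5.01% higher and 23.2% lower.

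PU.1, the lineage factor, showed another distribution. It had a peak at 24.6% of the higher p300 peaks, against 65.2% of the lower and 68.8% of those not called. Where it was present at lower p300 peaks, 60.7% of 5703 sites were PU.1-lower and 0.0351% higher. At higher p300 peaks 26.6% of 7029 sites were PU.1-higher and 0.882% lower. At p300 peaks not called 11.6% were lower. When that table was scaled by TMM, 2050 instead of 3461 were lower at the losses, 3137 instead of 1873 higher at the gains, and 3.50% lower at the p300 peaks not called.

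Fosl2, an AP-1 subunit, was at 34.0% of higher and 37.1% of lower p300 peaks, and at 48.0% of those not called. Of 9726 matches at gains 35.4% were higher, and of 3246 matches at losses 0 were higher and 19.6% lower. The ERK1 kinase was higher at 30.2% of its matches at gains and lower at 14.3% at losses.

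The NCoR corepressor, its deacetylase HDAC3 and the coactivator PGC1b moved with p300 at most called matches. At higher p300 peaks, 54.2% of 16462 NCoR matches, 62.9% of 15137 HDAC3 matches and 63.8% of 8996 PGC1b matches were higher. At lower p300 peaks, 63.2% of 4806 NCoR matches, 54.5% of 4336 HDAC3 matches and 32.8% of 3697 PGC1b matches were lower. The HDAC3 KLA libraries had 31.2% and 46.5% of tags inside peaks (34.5% and 33.7% in Veh). TMM of the HDAC3 table gave 56.4% higher at gains and 66.7% lower at losses. Calls against the p300 direction were few, with 197 NCoR-lower matches at gains and 20 NCoR-higher at losses.

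Single peaks showed the same. At the Ptgs2 promoter p65 went from 14.0 and 28.0 to 214 and 249 tags per 10 M (3.47 ± 0.31), NCoR from 46.6 and 44.7 to 165 and 158, and PGC1b from 21.7 and 11.6 to 65.5 and 72.1. At the Slco2b1 intron PU.1 went from 225 and 225 to 25.5 and 21 (-3.27 ± 0.15) and NCoR from 217 and 325 to 25.1 and 29.1. At the peak downstream of Lyz2, HDAC3 went from 133 and 180 to 25.2 and 33.4 and p65 from 68.3 and 86.7 to 11.4 and 28.7.

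**Figure D4:**
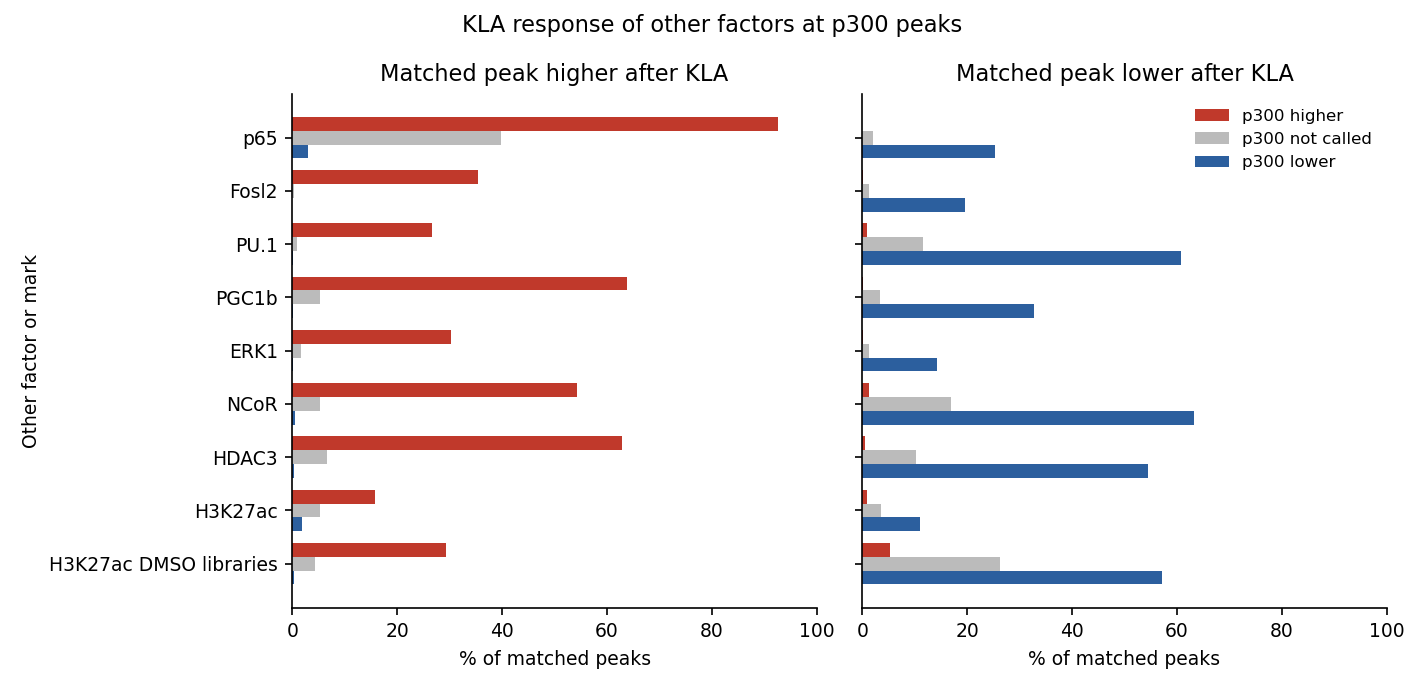
Percent of matched peaks of each other factor or mark that were higher (left) and lower (right), as bars for p300 peaks higher, lower or not called with KLA. p65 was higher at 92.6% of its matches at p300 gains, and PU.1 was lower at 60.7% of its matches at p300 losses.

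H3K27ac, the acetylation that p300 lays down, was compared in the same way. Regions were matched within 500 bp, and 7.99% of 17055 tested regions were higher and 4.57% lower in the libraries without solvent. Their labels read NWT, and the study's methods name floxed Ncor mice as the wild type for its NCoR knockout. By the labels they also have another date than the libraries with DMSO, so these sets differ in more than solvent. Matches could also fall on untested regions under the tag minimum, which counted as not called. Over all matched p300 peaks 7.26% were at higher and 3.89% at lower regions. Of the higher p300 peaks 14.3% had a region, and 639 of these 4078 (15.7%) were higher and 38 lower. Of the lower p300 peaks 26.5% had one, of which 253 of 2318 (10.9%) were lower and 43 higher. At p300 peaks not called 36.4% had one. In the separate libraries with DMSO 6.72% of tested regions were higher and 28.7% lower, and 7.44% and 28.7% of all matches. There 29.4% of 3109 matches at gains were higher and 57.2% of 3676 matches at losses lower. At the Ptgs2 promoter H3K27ac went from 5.04 and 4.58 to 28.3 and 28.3 tags per 10 M (2.54 ± 0.48).

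p300 had also been measured in bone marrow cells on day 0 and day 4 of osteoclast differentiation, another signal in other libraries. There 62.2% of 20143 peaks were higher on day 4 and 0.248% lower by library totals. Of the KLA gains 14.5% had a match, of which 72.7% were higher on day 4, against 48.3% of the matches at KLA losses and 55.5% at peaks not called. These counts depended on the scaling of that table: by TMM 416 instead of 3017 matches at gains and 43 instead of 781 at losses were higher. At the Slco2b1 intron day 4 p300 was higher than day 0 (15.8 and 19.2 against 76.3 and 39.7 tags per 10 M), the opposite direction to KLA, though TMM put the change at 0.14.

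Motif letters were counted on both strands in the 200 bp around the centre of 67990 peaks. They were AP-1 TGANTCA, C/EBP TTGCNNAA, NF-kB GGGANNTTC, IRF AAANNGAAA, PU.1 GAGGAAGT, RUNX AACCACA, MEF2 CTAAAAAT, ETS CCGGAAGT, the E-box TCACGTG, STAT TTCCNGGAA, CRE TGACGTCA and the GC box GGGCGGGG. ETS and PU.1 share the letters GGAAGT.

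Distal gains and losses differed most in 3 motifs. AP-1 letters were in 30.5% of higher, 9.51% of lower and 23.7% of distal peaks not called, and in 25.1% of all distal peaks. C/EBP letters were in 23.6%, 9.19% and 15.9% (18.7% of all). PU.1 letters ran the other way, in 6.25% of higher and 14.3% of lower, with 14.6% of those not called (10.7% of all). RUNX letters were in 7.96% of higher and 13.6% of lower (9.81% of all). NF-kB letters were in 5.96% and 3.21% (4.82% of all), and IRF in 15.5% and 11.3% (14.1% of all). MEF2 letters were even, at 1.73% and 1.75%. The E-box, STAT, CRE, ETS and GC box letters were each in under 2% of all distal peaks.

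Promoters had another make-up. At promoter-TSS peaks GC box letters were in 7.49% of higher, 24.0% of lower and 28.6% of peaks not called (25.1% of all), and the median GC content was 47%, 62% and 63%. C/EBP letters were in 24.7% of higher and 6.10% of lower promoter peaks (9.60% of all), and AP-1 in 20.3% and 3.81% (8.41% of all). NF-kB letters were in 8.85% and 2.12% (4.05% of all). ETS letters were in 0.860% of higher and 6.19% of lower (7.86% of all). A match says only that these letters are in the window, as 4 of the 8 sequences printed above hold none.

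**Figure D5:**
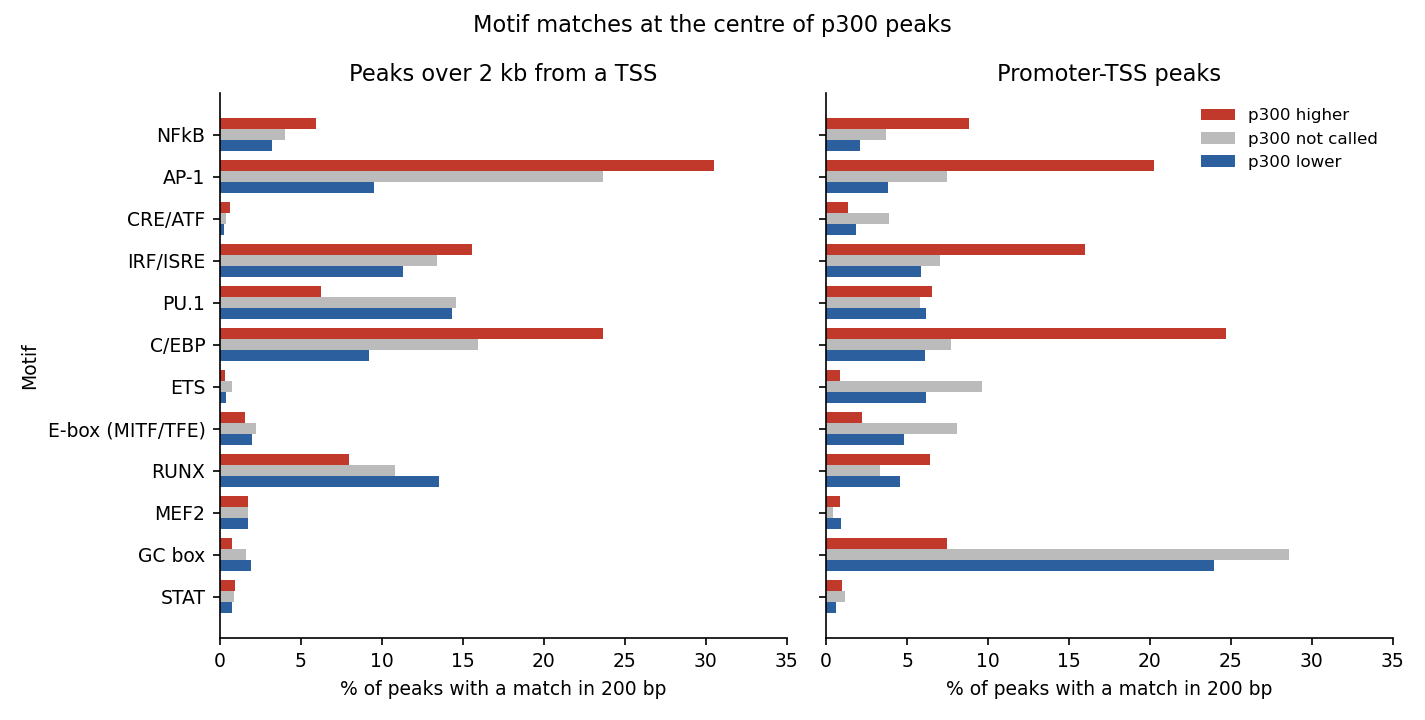
Percent of p300 peaks with at least 1 match to each motif in the 200 bp around the centre, for peaks higher, lower and not called, at distal and at promoter-TSS peaks. At distal peaks AP-1 and C/EBP letters are more frequent in gains (30.5% and 23.6%) than in losses (9.51% and 9.19%). PU.1 letters are less frequent in distal gains (6.25%) than in distal losses (14.3%).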

How the data were processed

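p300 ChIP-seq libraries of wild type BMDMs (Veh and KLA, 2 each) were analysed. According to the study's methods and its sample labels, the authors aligned reads to mm10 with Bowtie2, called peaks with HOMER, kept reproducible peaks of each condition, merged them and deposited raw tag counts per peak with at most 3 tags per position. They used DESeq2. Versions are not given in the sources used here. The deposited counts are not normalized, and library totals were read from the column headers.

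Counts were tested with edgeR 4.0.16 in R 4.3.3 (quasi-likelihood F-test, library totals as size, peaks with at least 4 tags in 1 library, 16 for H3K27ac, Benjamini-Hochberg adjusted p under 0.05 and over 2-fold, SE from the F statistic). Alternatives were TMM, DESeq2 1.42.0, other filters, a replicate block and leaving out each library. On simulated data for this comparison, over 67998 peaks, 170 of 200 peaks changed 3-fold were recovered (85%) with 5 false calls (2.86%). The changes were planted only in peaks above a minimum mean tag count, and all peaks shared a common dispersion. In the data far more peaks were called, many of them from few tags, so these rates do not cover weak peaks. Python 3.11.15, pandas 2.3.3 and scipy 1.17.1 did the rest. Nearest genes and classes are the file's own, and 91.3% of the 4973 promoter-TSS peaks whose gene has a RefSeq start by symbol lay within 5 bp of the stated distance to a RefSeq start. Replicates correlated at r = 0.901 (Veh) and 0.944 (KLA) across peaks and differed beyond sampling noise.

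Named genes were the study's 7 example loci, up to 4 called per direction and 2 not called per list by the strongest peak, the 3 lowest p per class and direction, and the 5 genes with most called peaks. The comparison, the 18 lists of 297 genes and the motifs were chosen with earlier results of these data known. Other genes were chosen after their values were seen: Tnf, Il1b, Tlr4, Spi1, Ep300, Tnfaip3, Edn1 and Nr3c1. Some genes of the lists are not reported here.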

Additional observations from a re-analysis of the deposited data

How the results depend on the processing

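No call at a named peak turned its direction under any alternative: of the settings tried at 208 named peaks, 2356 gave the same call, 69 lost it and 24 gained one, and under TMM 195 peaks were the same, 8 weaker and 5 stronger. Leaving out the low-count filter or using filterByExpr, or DESeq2's Wald test with library totals, kept the counts within 1.5 times. A limit of more than 4-fold gave 18754 higher and 2684 lower peaks. Lower peaks numbered 16245 by TMM, 15472 by DESeq2's size factors in edgeR and 14808 by DESeq2 alone with its default scaling, and 5487 to 9188 when 1 library was left out (higher 21217 to 29602). For TMM, DESeq2's size factors and the range without 1 library, the lower counts were 2961, 2759 and 695 to 1241 at promoter-TSS peaks, 6853, 6547 and 2348 to 4009 in introns, 5382, 5153 and 1962 to 3313 in intergenic regions, 11957, 11443 and 4257 to 7225 at distal peaks, and 4288, 4029 and 1103 to 1963 within 2 kb. A 1 kb limit gave 1195 higher peaks near starts. Genes of the lists whose strongest peak was lower numbered 47 by TMM.

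List medians that changed sign under TMM were those of macrophage transcription factors (-0.13), surface receptors (-0.20), LXR and lipid genes (-0.37), cholesterol genes (-0.43), osteoclast genes (-0.42), cell cycle genes (-0.083) and macrophage markers (-0.38). Without 1 library the medians ranged from -0.0065 to 0.15 for LXR and lipid genes, -0.099 to 0.16 for cholesterol genes, -0.012 to 0.10 for osteoclast genes and -0.12 to 0.13 for clock genes. Scaling the other tables by TMM gave, at p300 gains and losses, 11526 higher and 2566 lower matches for p65, 5437 and 1333 for Fosl2, 3137 and 2050 for PU.1, and 416 higher at gains and 43 higher at losses for day 4. With TMM for p300, NCoR was lower at 4705 and H3K27ac at 412 matches, and the DMSO libraries gave 2102. In 100 bp, NF-kB letters were in 3.88% and IRF in 8.25% of gains, and RUNX in 7.87% and the GC box in 3.19% of losses. With the 200 bp window the GC box was in 1.90% of distal losses. The causes were not tested beyond what each setting changes.

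Replicates with the same number did not deviate together (correlation 0.00155), and the main test did not pair them. A correlation across peaks cannot show whether such libraries share a mouse or a culture. With the replicate block 27179 peaks were higher and 7439 lower. Depth limits peaks near 0 tags in a group, where a fold change carries a wide counting interval.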

Other observations

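The gene groups below were chosen after their values had been seen, so they carry no test. Replication-dependent histone genes, which are transcribed as cells copy DNA, lost p300 at their promoters. Of 48 promoter-TSS peaks at 43 such genes, 36 were lower and 1 higher, against 18.5% and 12.8% of all promoter-TSS peaks, with a median log2 fold change of -1.35 (-1.87 by TMM). The promoter of Hist1h1b went from 55.8 and 76.2 tags per 10 M in Veh to 3.07 and 5.40 in KLA. Hist1h4a, with 526 and 478 against 510 and 483, was not called. Histone genes have near-identical copies, and reads can be split between them, so values of single genes are uncertain.

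Lysosomal genes of proteases, hydrolases and membrane proteins had 67 of 301 peaks higher and 78 lower, with a median of -0.07 (44 and 118 by TMM), beside 42.1% and 12.9% of all peaks. Their 30 promoter-TSS peaks had 0 higher and 4 lower (13 lower by TMM), and the 4 are no larger a share than the 18.5% of all promoter-TSS peaks. Genes of the vacuolar ATPase, which acidifies the lysosome, had 18 of 100 peaks higher and 21 lower (10 and 37 by TMM). Lysosomal genes differed among themselves: Ctsc had 28 of 39 peaks higher and 0 lower, Lamp2 9 of 17 higher and 1 lower, and Ctsa 10 of 11 lower. Among genes with most lower peaks were Lgals3, a galectin, with 17 of 26 and 0 higher, Cxcr4, a chemokine receptor, with 16 of 25, and the lysosomal Ctsb with 16 of 26 and Psap with 15 of 31.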
